A study of Rattus norvegicus with 4 samples.

Results

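The oestrogen receptors and their responsive genes were examined in the ventral prostate, the largest secretory lobe of the rat prostate. The 10 genes asked for were Esr1, Esr2, Pgr, Greb1, Nrip1, Tff3, Ltf, C3, Wnt4 and Areg. A probe set was taken where the platform annotation mapped it to exactly 1 symbol and that symbol was among them, whether it was dim or bright. This found 10 probe sets for 9 of the 14217 genes named on the array, 2 of them for Greb1. No probe set carried the symbol Ltf or its Entrez identifier, so lactoferrin was not analysed here.

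The animals were male F344 rats, an inbred laboratory strain, 6 weeks old. In the PhIP group, 4 rats received 300 mg/kg of PhIP, a heterocyclic amine carcinogen formed in cooked meat, and the control group held 4 rats without it. All were killed 2 days later, and the route and any vehicle are not stated in the labels. RNA from 2 rats was mixed for each array, which gives PhIP 1, PhIP 2, control 1 and control 2, and the spread between such pools understates that between rats. The values are MAS5 signals, linear intensities with 1 value per probe set and array.

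Oestrogen acts mainly through 2 nuclear receptors, ERα encoded by Esr1 and ERβ encoded by Esr2. The bound receptor dimerises, binds DNA at oestrogen response elements and recruits coactivators, and its classical target genes include Pgr, Greb1 and trefoil factors. In the rodent prostate ERα is known mainly from the stroma and ERβ from the epithelium, and ERβ was first cloned from rat prostate. PhIP has been reported to act like an oestrogen in cultured cells, so the questions were whether the receptors gave a signal in this lobe and whether the responsive genes moved.

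Neither receptor gene gave a signal beyond the range of genes that belong to other organs. Esr1 had signals of 1.6 and 2.4 on the PhIP arrays, against 8.9 and 1.0 on the control arrays. The control arrays enclosed both PhIP arrays, and the highest of the 4 values was that of control 1. Its mean brightness lay at the 11.3th percentile of 31042 probe sets, below the 40th percentile (a signal of about 14.3) above which probe sets were tested, so the log2 difference of −0.27 has no test. Detection calls were not used here, and probe sets differ in how strongly they bind, so these ranks give no order of genes by level. As a background, 17 probe sets for 16 genes of retina, pituitary and pancreas had signals from 0.3 to 37.8, with a median of 5.55 over their means. All Esr1 values lay inside that range. So did all values of Wnt4 and Tff3, which were bright enough to test, and 3 of the 17 background probe sets were themselves above the limit. The range therefore does not tell the receptors from these genes.

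Esr2 had 14.5 and 18.8 on the PhIP arrays, against 2.6 and 3.3 on the control arrays. Both PhIP values lay above both control values, and this was the largest difference between the groups among the 10 probe sets on the scale used for testing, log2(signal + 10). The mean signal was 16.7 ± 3.0 in PhIP and 2.95 ± 0.49 in control (SD, n = 2 each), and the log2 difference was 1.04. The probe set ranked at the 29.0th percentile of brightness and was not tested. Of 12417 probe sets below the limit, 10.2% had both PhIP arrays above both control arrays. When all 31042 probe sets were tested, Esr2 had a limma p of 0.00422 and an adjusted p of 0.346, with a log2 difference of 1.04 ± 0.23 (SE), and 3.83% of all probe sets were higher at an unadjusted p under 0.05. In that fit 0% of probe sets passed the adjusted threshold. An exact permutation test of 2 arrays against 2 cannot give a two-sided p below 0.333. Leaving out each array in turn gave 0.92 to 1.15, with adjusted p from 0.241 to 0.944. Without the added constant the log2 difference was 2.49 (adjusted p = 0.379), so its size depends on how dim signals are treated. The PhIP values themselves lay inside the range of the retina, pituitary and pancreas probe sets, of which 2 of 17 had a PhIP mean at least as high. The background list also held 10 probe sets of liver genes, set apart after their values had been seen, and over all 27 the count was 8.

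**Figure D1:**
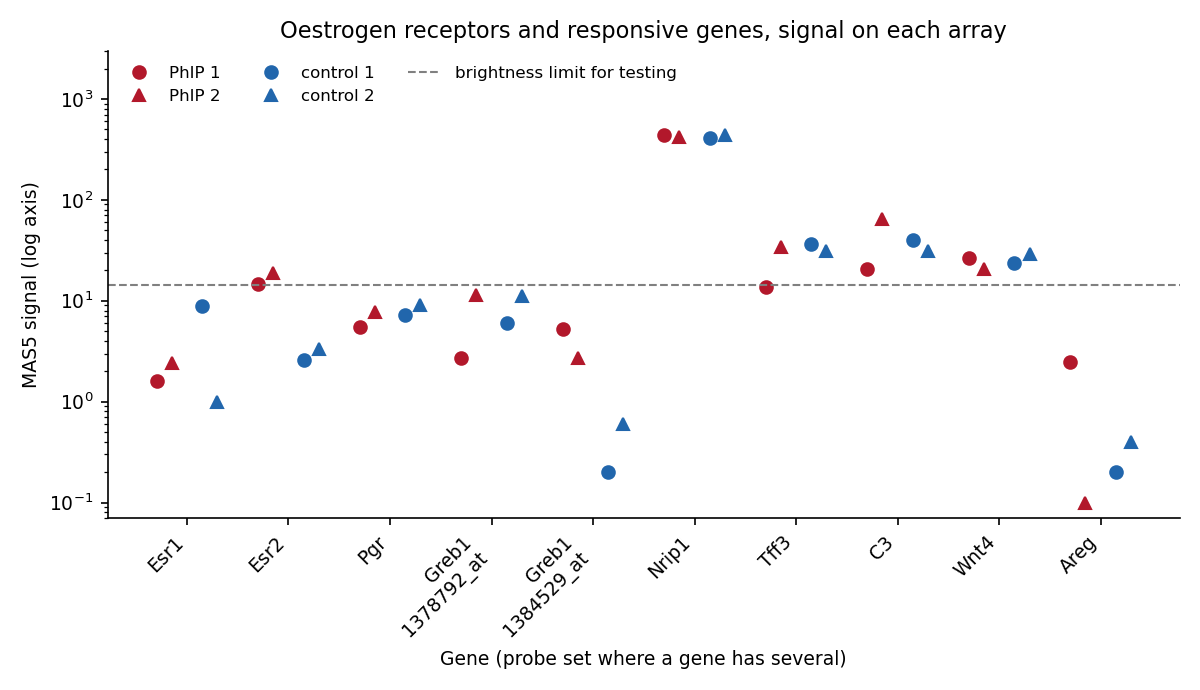
Signal of each probe set on each array (log axis), PhIP in red and control in blue, with circles for array 1 and triangles for array 2. The dashed line marks a signal of 14.3, about the brightness above which probe sets were tested. Nrip1 stood above 400 on all 4 arrays, while Esr1, Pgr, both Greb1 probe sets and Areg stood below the line on all 4.

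The promoter of Esr2 is shown because this gene had the largest difference, and those of C3 and Tff3 because they held the same motif and their PhIP arrays differed most among the tested members. The sequences are RefSeq's, build GRCr8, minus strand, and cover 250 bases before to 50 after the gene's start. They lie at chr6:100644660-100644959, chr9:2201290-2201589 and chr20:9199284-9199583. Capitals mark GGTCA or its reverse complement TGACC, the 5-base core that stands on either side of an oestrogen response element and that several other nuclear receptors also bind.
Esr2 promoter: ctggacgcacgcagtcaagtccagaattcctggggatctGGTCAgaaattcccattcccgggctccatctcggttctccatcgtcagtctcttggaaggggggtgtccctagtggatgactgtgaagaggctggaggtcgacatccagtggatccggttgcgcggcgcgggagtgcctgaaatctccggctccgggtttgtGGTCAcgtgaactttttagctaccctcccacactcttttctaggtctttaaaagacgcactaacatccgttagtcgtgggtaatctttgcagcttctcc
C3 promoter: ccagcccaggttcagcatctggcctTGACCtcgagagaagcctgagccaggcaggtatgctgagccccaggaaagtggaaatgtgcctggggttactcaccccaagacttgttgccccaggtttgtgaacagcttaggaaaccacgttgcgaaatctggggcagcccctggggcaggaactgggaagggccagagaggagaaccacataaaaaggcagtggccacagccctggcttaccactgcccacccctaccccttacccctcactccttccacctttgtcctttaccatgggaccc
Tff3 promoter: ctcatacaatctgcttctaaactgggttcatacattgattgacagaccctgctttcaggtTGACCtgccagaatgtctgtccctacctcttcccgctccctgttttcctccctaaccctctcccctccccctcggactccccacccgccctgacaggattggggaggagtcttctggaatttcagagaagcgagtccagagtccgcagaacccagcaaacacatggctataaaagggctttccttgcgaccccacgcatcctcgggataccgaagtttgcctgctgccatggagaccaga
The first bases of these cores lay 211 and 49 bases before the start in Esr2, 225 before it in C3 and 190 before it in Tff3. Promoters were held for 9 of the 10 genes, Greb1 being the other. The core occurred on either strand in 4 of these 9, the fourth being Ltf, and in 40.5% of 33469 rat promoters of the same length. The longer form AGGTCA, which contains GGTCA, or its reverse complement stood in the promoters of C3, Tff3 and Ltf and in 16.2% of all. The full palindromic element, GGTCA and TGACC with any 3 bases between them, was found in 0 of the 9 and in 0.0269% of all promoters. A match is a run of letters in this window, not a measured binding site.

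Among classical targets of ERα, the progesterone receptor gene and Greb1, like the receptors, were too dim to test. Pgr, itself a steroid receptor, had 5.5 and 7.7 on the PhIP arrays, against 7.3 and 9.1 on the control arrays. The groups overlapped, and the log2 difference of −0.13 was not tested. Greb1, a cofactor of ERα named for its induction by oestrogen in breast cancer cells, was read by a pair of probe sets that differed in direction. Probe set 1378792_at had 2.7 and 11.4 on the PhIP arrays, against 6.0 and 11.2 on the control arrays (log2 difference −0.16). The PhIP values enclosed the control values. Probe set 1384529_at had 5.3 and 2.7 on the PhIP arrays, against 0.2 and 0.6 on the control arrays (log2 difference 0.42). Here the groups did not overlap, but the probe set ranked at the 6.52th percentile of brightness, and the adjusted p was 0.516 when all probe sets were tested (unadjusted p = 0.0496). Areg, which encodes the EGF receptor ligand amphiregulin, a mediator of oestrogen in mammary ducts, had 2.5 and 0.1 on the PhIP arrays, against 0.2 and 0.4 on the control arrays. It ranked at the 0.957th percentile, and its groups overlapped. Of the 6 dim probe sets, 2 were thus higher without overlap, Esr2 and 1 of Greb1, and 0 were lower without overlap, where 10.2% and 24.4% of all dim probe sets were.

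The 4 probe sets bright enough to test were those of Nrip1, C3, Tff3 and Wnt4. None of them passed an adjusted p of 0.05 (limma, Benjamini-Hochberg over 18625 probe sets), as 0.0268% of tested probe sets did. None had an unadjusted p under 0.05 either, against 13.0% of tested probe sets. In none were the groups apart, whereas 19.8% of tested probe sets were higher and 26.0% lower in PhIP without overlap. Their median log2 difference was −0.06, and that of all tested probe sets was −0.03.

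Nrip1 encodes RIP140, a corepressor that binds agonist-bound nuclear receptors and is induced by oestrogen in breast cancer cells. Its signals were 438.9 and 416.9 on the PhIP arrays, against 412.4 and 438.6 on the control arrays. The 2 groups interleaved, and the probe set ranked at the 92.5th percentile of brightness. The log2 difference was 0.01 ± 0.10 (SE; limma adjusted p = 0.980), with a 95% interval of −0.24 to 0.25. On the scale used, that interval leaves room for a fold between 0.849 and 1.19. That interval holds for the scaling as deposited. The difference was −0.01 after quantile normalization, −0.02 after cyclic loess, 0.14 ± 0.10 with median centring and 0.24 ± 0.14 with scaling to the hybridization controls, which moved the median of all tested probe sets to 0.11 and 0.18.

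Wnt4, a secreted signal that acts downstream of the progesterone receptor in the mammary gland, had 26.3 and 20.4 on the PhIP arrays, against 23.8 and 28.8 on the control arrays. The groups overlapped. The log2 difference was −0.12 ± 0.23 (adjusted p = 0.836, 95% interval −0.66 to 0.41), with a positive sign after every rescaling tried, up to 0.04 with scaling to the hybridization controls.

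Tff3 encodes intestinal trefoil factor, a mucosal protective peptide that oestrogen induces in breast cancer cells. It had 13.6 and 34.4 on the PhIP arrays, against 36.1 and 31.0 on the control arrays. PhIP 1 lay apart from the other 3 arrays, and PhIP 2 lay between the control arrays. The log2 difference was −0.43 ± 0.32 (adjusted p = 0.597, 95% interval −1.16 to 0.31). It was −0.88 without PhIP 2 (adjusted p = 0.813) and 0.03 without PhIP 1 (adjusted p = 0.993). Its relative Tff1, the trefoil factor best known as an oestrogen target and named after its value was seen, had 25.9 and 4.9 on the PhIP arrays, against 27.2 and 28.7 on the control arrays. Both PhIP arrays lay below both control arrays in Tff1, PhIP 1 only narrowly and PhIP 2 far below (log2 difference −0.71 ± 0.40, adjusted p = 0.488), so a different PhIP pool was the low one in each trefoil gene.

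C3, the central complement component, is induced by oestrogen in rodent uterus and made mostly by liver and by macrophages. It had 20.7 and 64.9 on the PhIP arrays, against 40.4 and 31.1 on the control arrays. The PhIP arrays were the lowest and the highest of the 4, on either side of both control arrays. The log2 difference was 0.08 ± 0.39 (adjusted p = 0.947), and its 95% interval ran from −0.83 to 0.98. It was 0.72 without PhIP 1 (adjusted p = 0.827) and −0.57 without PhIP 2 (adjusted p = 0.926). On PhIP 2, genes of the liver were also high. Albumin gave 150.4 and 734.7 on the PhIP arrays, against 125.3 and 121.5 on the control arrays (probe set 1367555_at). Over 10 probe sets of 7 liver genes, the summed signal was 329.2 and 1382 on the PhIP arrays, against 315.2 and 332.1 on the control arrays. Most of that sum was albumin. Its other probe set, 1367556_s_at, gave 80.2 and 363.0 on the PhIP arrays, against 71.9 and 75.3 on the control arrays. Of the 10 liver probe sets, 9 were highest on PhIP 2, as were 19.4% of all probe sets. The liver genes were set apart after their values had been seen, so these values describe the pattern and do not test it. Without overlap, 19.8% of all tested probe sets were higher and 26.0% lower in PhIP. Of 8 macrophage markers, 2 were higher without overlap, Mrc1 and the lysozyme gene Lyz2, and 3 were lower, C1qa, C1qb and Cd68. The median log2 difference of the 8 was −0.14. Their summed signal was 5651.5 and 5669.3 on the PhIP arrays, against 4812.4 and 4662.8 on the control arrays. It was almost wholly that of Lyz2, which gave 5321.2 and 5372 on the PhIP arrays, against 4465.1 and 4256.6 on the control arrays, so the sum describes that gene. The part of liver and macrophage genes in the C3 values was not tested. All 5 neutrophil genes read, S100a8 and S100a9 among them, were too dim to test.

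**Figure D2:**
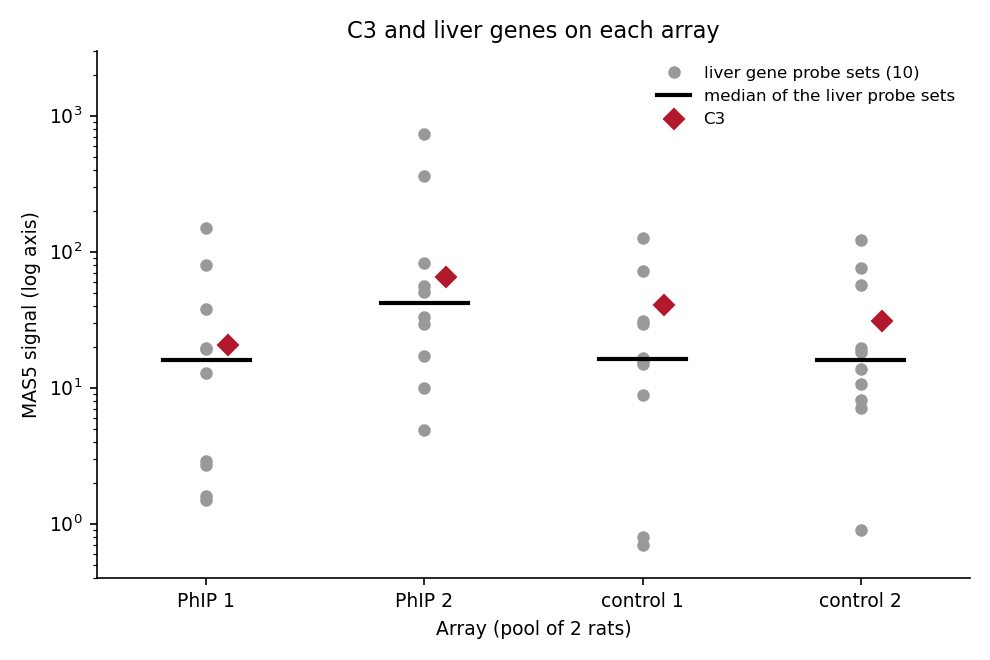
Signal (log axis) of C3 as a red diamond and of the 10 liver gene probe sets as grey points, with their median as a bar, on each array. On PhIP 2 C3 reached 64.9 and the liver median was 42.0, against liver medians of 16.0 on PhIP 1, 16.2 on control 1 and 16.0 on control 2.

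Against probe sets of like brightness, 8 of the 10 lay within the 5th to 95th percentile of the log2 difference. The exceptions were Esr2, at 1.04 where the band ran from −0.75 to 0.53, and Greb1 probe set 1384529_at, at 0.42 where it ran from −0.33 to 0.33. Both were too dim to test. Over all 10 the median log2 difference was −0.06, and over all 31042 probe sets it was −0.05.

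**Figure D3:**
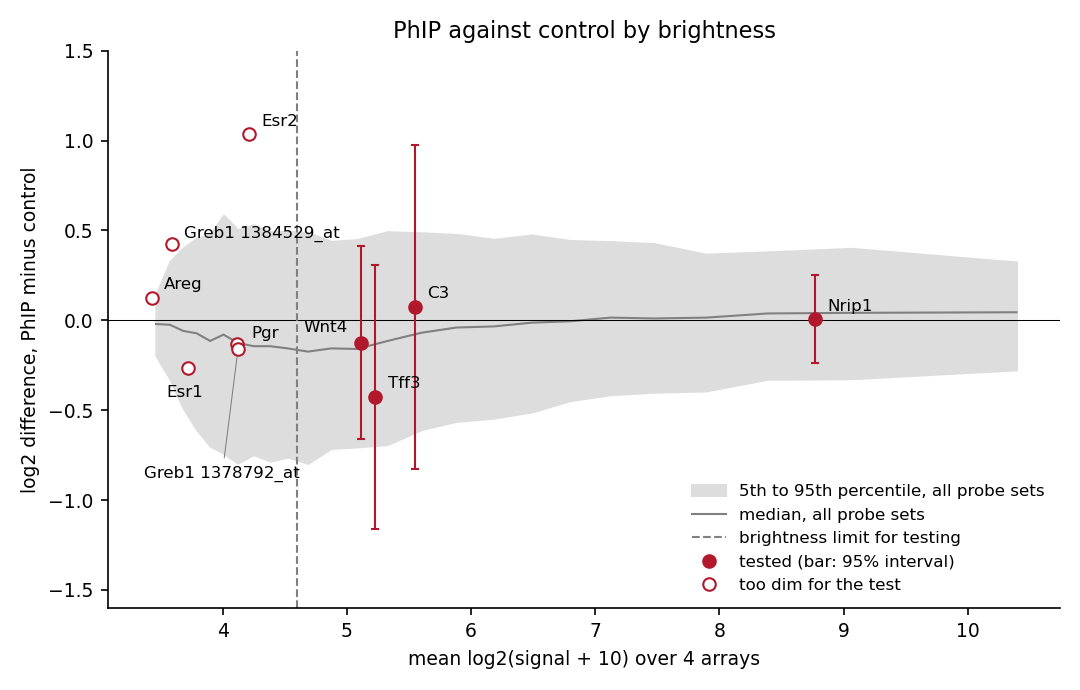
Log2 difference, PhIP minus control, of each probe set (y) against its mean log2(signal + 10) over the 4 arrays (x), filled where tested with a 95% interval and open where too dim. The grey band holds the 5th to 95th percentile of all probe sets in 25 classes of brightness; Esr2 lies at 1.04, above it, and Nrip1 at 0.01.

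The wider pathway was read through 3 lists of other genes, each gene by its brightest tested probe set. Of the coregulators and pioneer factors, 16 of 18 had a probe set and 15 were tested. Their median log2 difference was 0.04. None passed the adjusted threshold, and at an unadjusted p under 0.05, 1 was higher and 0 were lower, where 5.36% and 7.61% of all tested probe sets were. The one was Foxa1, the pioneer factor that opens chromatin for oestrogen and androgen receptors, with 76.4 and 93.1 on the PhIP arrays against 53.6 and 49.8 on the control arrays. Both PhIP arrays were above both control arrays, by 0.61 ± 0.18 (adjusted p = 0.230). The receptor repressor gene Safb stood at 0.34 ± 0.16, the methyltransferase gene Kmt2d at 0.17 ± 0.11 and the transcription factor gene Sp1, whose sign turned with scaling to the hybridization controls, at −0.17 ± 0.11. Other tested probe sets of Sp1 ran from −0.40 ± 0.20 to 0.31 ± 0.32. The p160 coactivator Ncoa1 and the corepressor Ncor1 are named after their values were seen. Ncoa1 stood at 0.01 ± 0.12 in its brightest probe set and at −0.09 ± 0.11 in its other tested one. Ncor1 stood at 0.04 ± 0.12 in its brightest probe set and −0.03 ± 0.17 in another. Its remaining probe set, 1384293_at, had 177.6 and 188.0 on the PhIP arrays, against 137.6 and 146.5 on the control arrays, without overlap (0.34 ± 0.13, unadjusted p = 0.0331, adjusted p = 0.345).

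Enzymes that make or remove oestrogens, with related receptors, gave 11 tested genes and a median log2 difference of −0.08. None passed, and at an unadjusted p under 0.05, 0 were higher and 2 lower, where 5.36% and 7.61% of all tested probe sets were. Aromatase, which makes oestrogens from androgens and is encoded by Cyp19a1, was dim in all 3 of its probe sets, none above 13.9 on any array. Hsd17b7, an enzyme of both oestradiol and cholesterol synthesis, had 126.2 and 123.2 on the PhIP arrays, against 189.4 and 179.7 on the control arrays. That is a log2 difference of −0.53 ± 0.13 (adjusted p = 0.180), with −0.88 ± 0.23 in its other probe set. The orphan receptor gene Esrrb was the other (−0.59 ± 0.25, unadjusted p = 0.0462, adjusted p = 0.376). Its unadjusted p was 0.0759 with no filter, 0.0557 with the replicate block and 0.101 to 0.119 under the 4 rescalings, and it was 0.0722 to 0.280 without PhIP 1 or either control array. The sulphatase gene Sts stood at −0.45 ± 0.27 and the dehydrogenase gene Hsd17b11 at 0.25 ± 0.13. The membrane oestrogen receptor gene Gper1 and the PhIP-activating enzyme gene Cyp1a1 were too dim to test. The androgen receptor gene was not analysed here.

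Of 34 further genes listed as induced by oestrogen in some tissue, 24 were tested, with a median log2 difference of −0.11. None passed the adjusted threshold, and 4 were higher and 2 lower at an unadjusted p under 0.05, where 5.36% and 7.61% of all tested probe sets were. Mybl1, a MYB family transcription factor, had 69.2 and 114.6 on the PhIP arrays, against 13.1 and 17.4 on the control arrays (1.98 ± 0.26, adjusted p = 0.0534). The keratin gene Krt19 had 476.5 and 451.1 on the PhIP arrays, against 271.3 and 321.2 on the control arrays (0.63 ± 0.12, adjusted p = 0.110). The prolactin receptor gene Prlr was higher in all 3 of its tested probe sets, by 0.19 ± 0.05 (adjusted p = 0.221) in the brightest and by 0.63 ± 0.10 and 0.88 ± 0.40 in the others. Jun, named after its value was seen, was the fourth. Its brightest probe set gave 0.53 ± 0.16 (adjusted p = 0.254) and the others gave 0.21 ± 0.16 and 0.21 ± 0.17, with overlapping groups in 1 of these. On the lower side, the growth factor gene Igf1 had 110.7 and 126.7 on the PhIP arrays, against 229.0 and 164.6 on the control arrays (−0.67 ± 0.18, adjusted p = 0.211), and its other probe sets stood at −0.71 ± 0.24 and −0.70 ± 0.24. Ccnd1, which encodes the oestrogen-induced cyclin D1, was the second and, like Jun, is named with its value known (−0.31 ± 0.10, adjusted p = 0.279). Established ERα targets that did not reach that p included Xbp1 (−0.01 ± 0.07) and Myc (−0.11 ± 0.16), also named after their values were seen. Ctsd (−0.28 ± 0.15) and Igfbp4 (−0.43 ± 0.20), named likewise, missed it too, with both PhIP arrays below both control arrays. Without overlap, 6 of the 24 were higher and 8 lower, where 19.8% and 26.0% of all tested probe sets were.

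**Figure D4:**
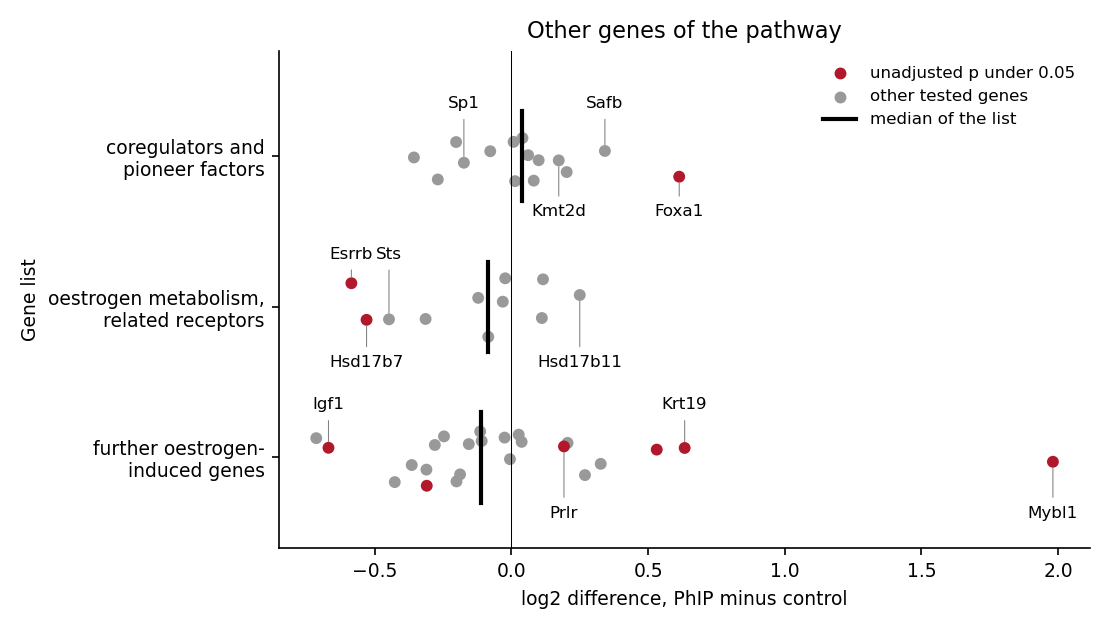
Log2 difference, PhIP minus control, of each tested gene in the 3 lists (points; red where the unadjusted p is under 0.05), with the median of each list as a bar. The medians were 0.04, −0.08 and −0.11 from top to bottom, and Mybl1 lay farthest from 0, at 1.98.

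Markers of several cell types differed between the groups. Over all tested probe sets, 26.0% were lower and 19.8% higher in PhIP without overlap, and 7.61% were lower and 5.36% higher at an unadjusted p under 0.05. Smooth muscle markers were lower without overlap in 10 of 10 genes, 9 of them at that p, with a median log2 difference of −0.79 and a summed signal of 4196.6 and 4149.1 on the PhIP arrays, against 6892.6 and 6929.5 on the control arrays. Of 10 fibroblast markers, 8 were lower at that p, the median was −0.53, and their summed signal was 7950 and 8164 on the PhIP arrays, against 13148 and 10458 on the control arrays. Luminal epithelial markers, Krt19 among them, were higher without overlap in 7 and lower in 1 of 9. At that p, 4 were higher and 1 was lower. The median of the 9 was 0.13. Their sums were 22579.5 and 22761.4 on the PhIP arrays, against 21233 and 19892.5 on the control arrays. The brightest of them, Sbp, gave 8219.2 and 8045.3 on the PhIP arrays, against 7243.7 and 6436.1 on the control arrays. The next brightest, Pbsn, stood at −0.06 ± 0.08. Skeletal muscle markers were lower without overlap in 4 of 5 tested genes, 3 of them at that p (median −1.15). Their sums were 495.9 and 416.4 on the PhIP arrays, against 903.9 and 1437.5 on the control arrays. Control 1 and control 2 lay far apart in Myl1 (5.2 and 305.6), Ckm (22.6 and 93.9) and Tnni2 (20.2 and 71.4). They lay closer in Acta1 (658.2 and 691.1) and Tnnc2 (197.7 and 275.5). Adipocyte markers were lower in 3 of 4 tested genes, both without overlap and at that p (median −0.86), with sums of 106.2 and 188.5 on the PhIP arrays, against 363.8 and 248.7 on the control arrays. Of 4 basal epithelial markers, 2 were lower and 0 higher without overlap, and 1 was lower at that p (median −0.20). No marker of these lists passed the adjusted threshold. In bulk RNA, fewer cells of a type and less RNA per cell cannot be told apart. The part of these shifts in the values of Igf1, a product of stromal cells, and of the epithelial genes Foxa1 and Krt19 was not tested. The 3′ to 5′ signal ratio of actin, a sign of RNA integrity, was 3.93 and 3.49 on the PhIP arrays, against 4.18 and 5.71 on the control arrays. That of Gapdh was 1.45 and 1.44 on the PhIP arrays, against 1.34 and 2.06 on the control arrays, and its groups overlapped.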

How the data were processed

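Biotin-labelled RNA of rat ventral prostate was hybridised to 4 rat arrays, per the labels. The deposited values are MAS5 intensities, per the submitters' processing notes, and the scaling target is not given in the sources used here. The authors' scaling put every array on a trimmed mean of 100.0 (2% off each end). Of 31099 probe sets, 57 manufacturer's controls were left out. Values were analysed as log2(signal + 10), and fold changes on that scale understate those of dim genes. The 18625 probe sets above the 40th percentile of mean log2 value were tested with limma (R 4.3.3, limma 3.58.1; lmFit, eBayes with trend, two-sided, Benjamini-Hochberg), and 12417 were not. The steps were run on simulated data with less noise than these arrays showed on average. Changes were added only to probe sets above the 40th percentile, so that run does not cover the dim members. Symbols came from the platform annotation.

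Members and lists were chosen with earlier results of these data known, so lists are described by counts and medians. From each pathway list, up to 4 genes with the largest moderated t are named. With 4 arrays, no search for genes of like pattern was made. Alternatives were other constants, filters, scalings and variance models, a replicate block and leaving out each array. The tests without the filter that also left out an array or the constant were added after seeing the data. Plots used Python 3.11.15 and matplotlib 3.10.9.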

Additional observations from a re-analysis of the deposited data

How the results depend on the processing

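The number of member probe sets past the adjusted threshold was 0 in every alternative, replicate block included. The 6 dim ones were tested only with no filter, and with the filter at the 60th percentile only Nrip1 was tested. Where no probe set at all passed, this count could only be 0. The number of all probe sets past it was 5 and varied widely: 0 under eBayes without trend, quantile normalization, no filter or median centring, 3 after cyclic loess, 22 with the larger constant, 35 with the replicate block, 44 with the filter at the 60th percentile, 52 with robust eBayes and 164 with scaling to the hybridization controls. Leaving out an array gave 0 (PhIP 1 or PhIP 2), 467 (control 2) and 2361 (control 1). Same-numbered arrays did not deviate together (r = −0.06), so the numbers were not taken as pairs. Among the 4 tested members, 1 had an unadjusted p under 0.05 without PhIP 1 (C3) and 1 without PhIP 2 (Tff3), and 0 without either control array.

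Near-zero differences turned sign. Nrip1 stood at −0.014 after quantile normalization, −0.019 after cyclic loess, 0.14 with median centring, 0.24 with the hybridization controls and −0.035 to 0.052 without 1 array (−0.028 without PhIP 1). Wnt4 stood at 0.0116 after quantile normalization, 0.0119 after median centring, 0.0128 after cyclic loess, 0.044 with scaling to the hybridization controls and −0.25 to 0.0034 without 1 array. Without 1 array, Tff3 ranged from −0.88 to 0.030 and C3 from −0.57 to 0.72 (−0.072 without control 2). Sp1 stood at 0.056 with scaling to the hybridization controls. Leaving out the same arrays with no filter gave the same differences, since the filter decides only which probe sets are tested. Median centring and the hybridization controls moved the median of all tested probe sets to 0.11 and 0.18. The list medians moved with them: coregulators to 0.18 and 0.26, the metabolism list to 0.052 and 0.095, and further induced genes to 0.025 and 0.11. The metabolism list stood at −0.13 with no constant or the smaller one, 0.016 after quantile normalization, 0.023 after cyclic loess and −0.15 to 0.059 without 1 array. Further induced genes stood at −0.076 after cyclic loess and −0.19 to 0.0075 without 1 array. Of their members, 2 passed with the hybridization controls (Mybl1 and Krt19), 1 with robust eBayes or the replicate block (Mybl1), and 0 to 6 without 1 array. Coregulators gave 0 to 3 and the metabolism list 0 to 1, the highest in each case without control 1. At an unadjusted p under 0.05, the metabolism list gave 0 to 2 lower genes, under 2 in 9 of 16 alternatives, and 0 to 3 higher, above 0 in 3. Coregulators gave 0 to 4 higher and 0 to 2 lower, and further induced genes 3 to 5 higher and 1 to 4 lower. The cause was not tested. The number of arrays limits the precision, and signal over background was not used here.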
